A study of Sus scrofa with 9 samples.

Results

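Embryonic longissimus dorsi, a back muscle along the spine, was compared between Tibetan pig and Large White pig. All libraries with either breed label were taken, which gave 6 of the 9 libraries of the series, 3 Tibetan and 3 Large White. The labels describe Tibetan as an indigenous Chinese breed and Large White as an introduced one. Both groups carry the stage label embryonic with no gestational day, and no treatment, sex or age is given for either. The labels do not say whether each library is a different animal or a pool, so each p-value reflects library-to-library spread alone, which may be technical. With no gestational day, a difference in age between the breeds cannot be told apart from breed. The 3 Wujin libraries entered the shared estimate of the spread, the filter on low values and the scaling, and no comparison. Values are FPKM, fragments scaled by transcript length and library size, and the 3 values of a breed are always given in the order of libraries 1, 2 and 3, Tibetan before Large White.

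Skeletal muscle of mammals forms before birth in successive waves. Dividing progenitors withdraw from the cell cycle, fuse into fibres and first build contractile units from embryonic, cardiac and non-muscle protein isoforms. Later in gestation and after birth these are exchanged for perinatal and adult isoforms, the enzymes of energy metabolism switch to their muscle forms, the calcium stores and the nerve contacts mature, and the share of connective tissue and of dividing cells falls.

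The libraries carried the marks of skeletal muscle. Of the 10 measured genes of a muscle identity list, all but ACTA1 in Tibetan 2 were detected in every library, and their summed level was 9866 to 52264 FPKM in Tibetan and 6716 to 8253 FPKM in Large White libraries. ACTA1, the skeletal alpha-actin, was listed at 37424, 0 and 41829 FPKM in Tibetan and at 4067, 3737 and 3208 FPKM in Large White libraries. An exact 0 beside such values can be a failed estimate, so ACTA1 is given by library only, and no other gene with a symbol had a single 0 beside a pair of values of at least 100 FPKM in its breed. Relative sequencing depth, read from the steps between low values, lay between 1 and 1.23 across the 6 libraries.

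The answer to which genes differ depended on the scale, so each comparison was made on the deposited FPKM and again after median-ratio scaling, which divides each library by the median ratio of its entries to their average. On the deposited scale limma called 9983 of 13106 tested entries (76.2%) at an adjusted p under 0.05, of which 1703 (13%) were higher and 8280 (63.2%) lower in Tibetan muscle. After median-ratio scaling 8571 entries (65.4%) were called, 4245 (32.4%) higher and 4326 (33%) lower. All 1703 entries called higher on the deposited scale were also called higher after rescaling, and all 4326 called lower after rescaling were also called lower on the deposited scale. A further 3547 entries (27.1%) were lower only on the deposited scale, 2135 (16.3%) were higher only after rescaling, and 407 (3.11%) were called in opposite directions. Below, a gene is said to have risen or fallen only where it was called in that direction on both scales, for which the background is 13% risen and 33% fallen. A gene that changed call with the scale was called on 1 scale only, or in opposite directions. The 3 values of each breed did not overlap and were higher in Tibetan for 14.1% and lower for 66.5% of entries on the deposited scale, and for 36.1% and 36.8% after rescaling. The median log2 change of all tested entries, Tibetan minus Large White, was -0.77 on the deposited scale and -0.01 after median-ratio scaling.

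**Figure D1:**
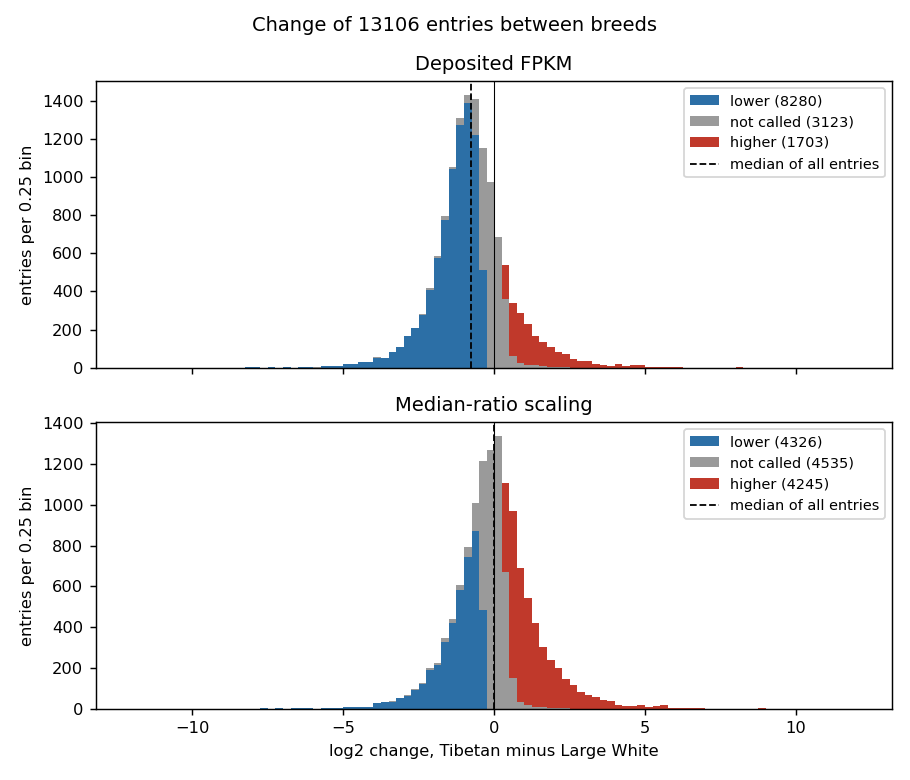
Histograms of the log2 change (Tibetan minus Large White, on log2 of FPKM + 1) of the tested entries on the deposited scale (top) and after median-ratio scaling (bottom), coloured by limma's call. The whole distribution moves from a median of -0.77 (dashed line) to -0.01, and the entries called lower go from 8280 to 4326.

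Part of each total was held by few entries, and more so in Tibetan muscle. The 10 highest entries of each library took 36.6%, 32.6% and 40.8% of the total FPKM in Tibetan and 19.9%, 24.96% and 18.8% in Large White libraries, and the ranges did not overlap. Scaling the libraries to the same total gave a median log2 change of -0.87, and scaling them to the same total without the 50 highest entries gave -0.57, with 2166 entries called higher and 7235 lower, which lies between the deposited and the median-ratio values. GAPDH, a glycolytic enzyme, was the highest entry of the Tibetan mean, at 37996, 40396 and 44224 FPKM in Tibetan and 3253, 2592 and 2598 FPKM in Large White libraries. MYL11, the fast regulatory myosin light chain also written MYLPF, stood at 20890.1, 21188 and 21556 FPKM in Tibetan and 11610.2, 9234 and 8172 FPKM in Large White libraries. TNNC2, the fast troponin C, stood at 19958, 18928 and 23406 FPKM in Tibetan and 6788, 5338 and 4521 FPKM in Large White libraries. All of these were at least as abundant in each Tibetan library as in any Large White library. An unnamed entry among the 10 highest of both breeds was listed at 0 in 4 libraries and near 52818 and 51249 FPKM in Tibetan 3 and Large White 2, and it stayed in the deposited totals.

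On both scales the share of entries called higher went with the level of the entry. Tested entries were cut into 5 bins of near equal size by their mean FPKM over the 6 libraries, the same values that are compared. The filter used a mean over 9 libraries, only 3 of them Tibetan. A low entry high only in Tibetan therefore passed it less easily than one low only in Tibetan. The part of the filter and of the bins in the pattern was not tested. After median-ratio scaling 16.8%, 24.1%, 29.6%, 39.3% and 52.3% of the bins from lowest to highest were called higher in Tibetan, and 41%, 36.9%, 32.3%, 30.5% and 24.3% were called lower. The median log2 change after rescaling went from -0.28 in the lowest bin to 0.54 in the highest. On the deposited scale the median was below 0 in every bin, at -0.80, -0.87, -0.86, -0.75 and -0.41 from lowest to highest, and so did not climb steadily. The deposited calls did go with level, with 6.45%, 8.05%, 8.93%, 13.2% and 28.4% higher and 68.2%, 68.7%, 67.7%, 61.8% and 49.4% lower. All entries called higher on the deposited scale rose, so the background of 13% risen is lower for rare and higher for abundant genes. The gene lists below were not matched for level.

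**Figure D2:**
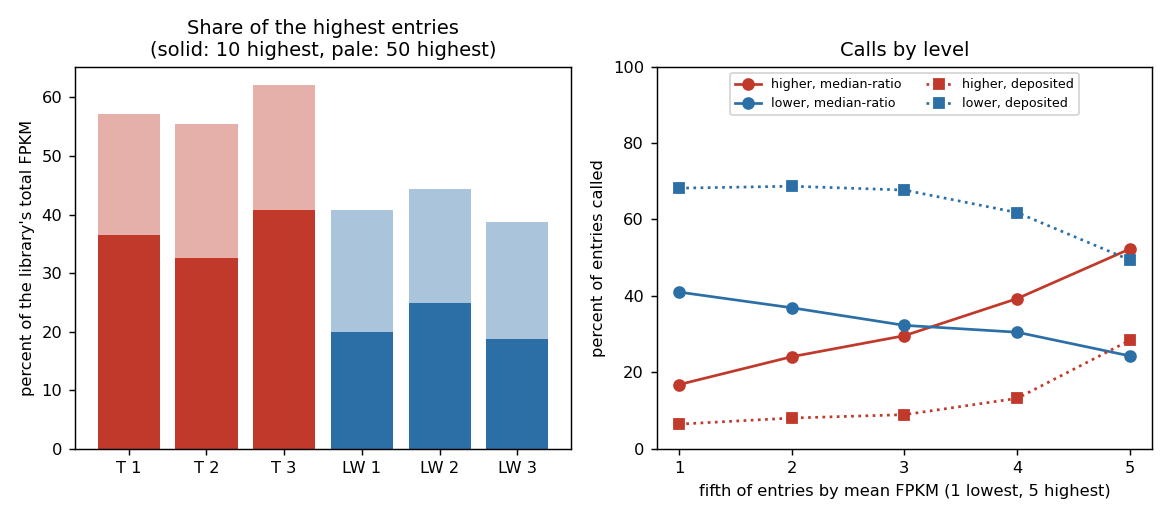
Left, percent of the total deposited FPKM of each library held by its 10 (solid) and 50 (pale) highest entries, with T for Tibetan and LW for Large White libraries. Right, percent of tested entries called higher or lower in Tibetan muscle by bin of mean FPKM, on each scale. The solid bars are taller in each Tibetan library, and the share called higher after median-ratio scaling climbs from 16.8% to 52.3%.

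Among the 15 largest rises were genes of the contractile and energy apparatus of muscle. ANKRD23, a stress-sensing ankyrin repeat protein of the sarcomere's I-band, stood at 706, 481 and 854 FPKM in Tibetan and 6.57, 3.598 and 5.35 FPKM in Large White libraries. Its log2 change was 6.78 ± 0.24 on the deposited and 7.67 ± 0.21 on the median-ratio scale (SE; limma adjusted p = 6.62e-08 on the deposited scale). TMOD4, the tropomodulin that caps thin filaments in skeletal muscle, stood at 656, 606 and 767 FPKM in Tibetan and 15.6, 11.7 and 11.3 FPKM in Large White libraries. PYGM, the muscle glycogen phosphorylase, stood at 4413, 3179 and 5493 FPKM in Tibetan and 127, 94.7 and 93.7 FPKM in Large White libraries, and CKMT2, the mitochondrial creatine kinase of muscle, at 658, 610.2 and 855 against 14.7, 12.3 and 15.6 FPKM. In each of these genes the lowest Tibetan library was far above the highest Large White library. CA14, a membrane carbonic anhydrase, stood at 57.2, 40.5 and 57.7 FPKM in Tibetan and 0.389, 0.368 and 0.9995 FPKM in Large White libraries. GPX2, a glutathione peroxidase best known from gut epithelium, was uneven among the Tibetan libraries, at 50.7, 64.2 and 15.8 against 0.223, 0.191 and 0.239 FPKM, with Tibetan 3 lowest but still apart from Large White.

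Among the 15 largest falls were genes of growing connective tissue and of young or dividing cells. COL12A1, a collagen that binds along collagen fibrils, stood at 2.42, 1.69 and 1.68 against 218, 265 and 292 FPKM. COL21A1, of the same collagen class, stood at 0.869, 1.14 and 1.05 against 84.05, 111 and 90.8 FPKM. FBN2, the fibrillin of fetal tissue, stood at 0.178, 0.331 and 0.237 FPKM in Tibetan and 46.1, 50.99 and 61.2 FPKM in Large White libraries. Tibetan libraries were low and Large White libraries high in all 3 genes, without overlap. STMN1, which breaks down microtubules in dividing cells, stood at 8.796, 11.1 and 7.57 FPKM in Tibetan and 499, 471 and 498 FPKM in Large White libraries, with a log2 change of -5.61 ± 0.13 on the deposited and -4.68 ± 0.18 on the median-ratio scale (adjusted p = 1.77e-08). NES, the intermediate filament nestin of progenitors and young fibres, stood at 4.95, 4.09 and 8.16 against 279, 271 and 302 FPKM, and PTN, the growth factor pleiotrophin, at 3.22, 1.01 and 0.955 against 80.8, 161 and 124 FPKM. CRABP2, a carrier of retinoic acid in the embryo, stood at 0.692, 0.759 and 1.901 against 118, 75.5 and 112 FPKM. PRR32, a proline-rich protein, had the smallest adjusted p of these, 5.06e-09, with 0.261, 0.252 and 0.313 against 96.4, 90.04 and 93.8 FPKM. TNMD, tenomodulin of tendon, also fell, at 0.164, 0.858 and 0.328 against 81.7, 30.8 and 127 FPKM, and among Large White libraries it was lowest in Large White 2.

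A ratio of 2 genes within a library does not move with the scaling of that library, apart from the pseudocount of 1. Of 50 listed pairs, 24 had both genes in the table. In these the first gene is a muscle, fast, mature or mitochondrial form. The second is an embryonic, slow, other-tissue, cytosolic or general form. In 22 of the 24 the log2 ratio was higher in every Tibetan library than in any Large White library. In 0 it was lower, and in 2 the breeds overlapped. PYGM and PFKM each enter more than 1 pair, so the pairs are not independent. The same count over arbitrary pairs was not made. With 3 libraries against 3 a two-sided exact permutation test cannot go below p = 0.1, and the smallest value adjusted over the 24 pairs was 0.109, so no pair could pass a threshold of 0.05 and the ratios are given as values.

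In the sarcomere, the log2 ratio of MYH8 to MYH3, the perinatal to the embryonic myosin heavy chain, was 5.39, 5.88 and 5.86 in Tibetan and -4.998, -4.87 and -5.11 in Large White libraries. The embryonic chain was the more abundant in every Large White library and the perinatal chain in every Tibetan one. The ratio of MYBPC2 to MYBPC1, the fast to the slow myosin-binding protein C, was 1.48, 0.66 and 1.92 in Tibetan and -7.47, -7.60 and -7.55 in Large White libraries, a difference of 8.89. MYL1 to MYL4, the fast to the embryonic and atrial light chain, differed by 10.05, and TPM1 to TPM4, the muscle to the non-muscle tropomyosin, by 4.94. ACTA1 to ACTC1, the skeletal to the cardiac actin, overlapped only through the 0 of ACTA1 in Tibetan 2, and its difference was 6.37 with and 11.41 without that library. TNNC2 to TNNC1, the fast to the slow and cardiac troponin C, was 3.58, 1.13 and 3.86 in Tibetan and 1.98, 1.93 and 1.85 in Large White libraries. Tibetan 2 was the low one, with TNNC1 at 8645 FPKM against 1663 and 1615 FPKM in Tibetan 1 and 3, and without it the difference in log2 ratio went from 0.93 to 1.80.

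Among enzymes of sugar use, the log2 ratio of PFKM to PFKL, the muscle to the liver phosphofructokinase, was 7.12, 5.72 and 7.19 in Tibetan and -0.45, -0.43 and -0.65 in Large White libraries. The liver form was the higher of the pair in every Large White library. PFKM itself stood at 970.1, 562 and 1082 against 22.5, 21.6 and 17.6 FPKM. PHKA1 to PHKA2, the muscle to the liver subunit of phosphorylase kinase, was 4.97, 4.01 and 5.41 in Tibetan and -1.81, -2.19 and -2.06 in Large White libraries, which also crossed 0. HK2 to HK1, the insulin-responsive to the general hexokinase, was 2.44, 1.44 and 1.19 in Tibetan and -3.35, -2.85 and -2.88 in Large White libraries, and it crossed 0 in the same direction. ENO3 to ENO1, the muscle to the general enolase, differed by 6.90 and PGAM2 to PGAM1, the phosphoglycerate mutases, by 4.94. PRKAG3 to PRKAG1, the muscle to the general gamma subunit of AMP-activated kinase, had the smallest difference among energy enzymes, 1.27, with Tibetan 3 above Tibetan 1 and 2.

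In mitochondria, SLC25A4 to SLC25A5, the adenine nucleotide carrier of muscle to that of dividing cells, was 5.34, 6.20 and 6.56 in Tibetan and 2.74, 2.67 and 2.35 in Large White libraries. IDH2 to IDH1, the mitochondrial to the cytosolic isocitrate dehydrogenase, differed by 3.92, and CPT1B to CPT1A, the muscle to the liver enzyme of fatty acid entry, by 2.54. Outside metabolism, MBNL1 to MBNL3, splicing regulators of mature and of early muscle, differed by 3.83. EZH1 to EZH2, the histone methyltransferases of resting and of dividing cells, was 2.51, 1.91 and 2.33 in Tibetan and -0.82, -0.70 and -0.57 in Large White libraries and so changed which member was the higher. DMD to UTRN, dystrophin to utrophin, differed by 1.58, and UNC45B to UNC45A, the muscle to the general myosin chaperone, by 1.54. A pair with a member near 0 FPKM moved with the pseudocount. BCAT2 to BCAT1, the mitochondrial to the cytosolic branched-chain aminotransferase, differed by 4.05 with 1, by 7.08 with 0.1 and by 2.12 with 5.

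**Figure D3:**
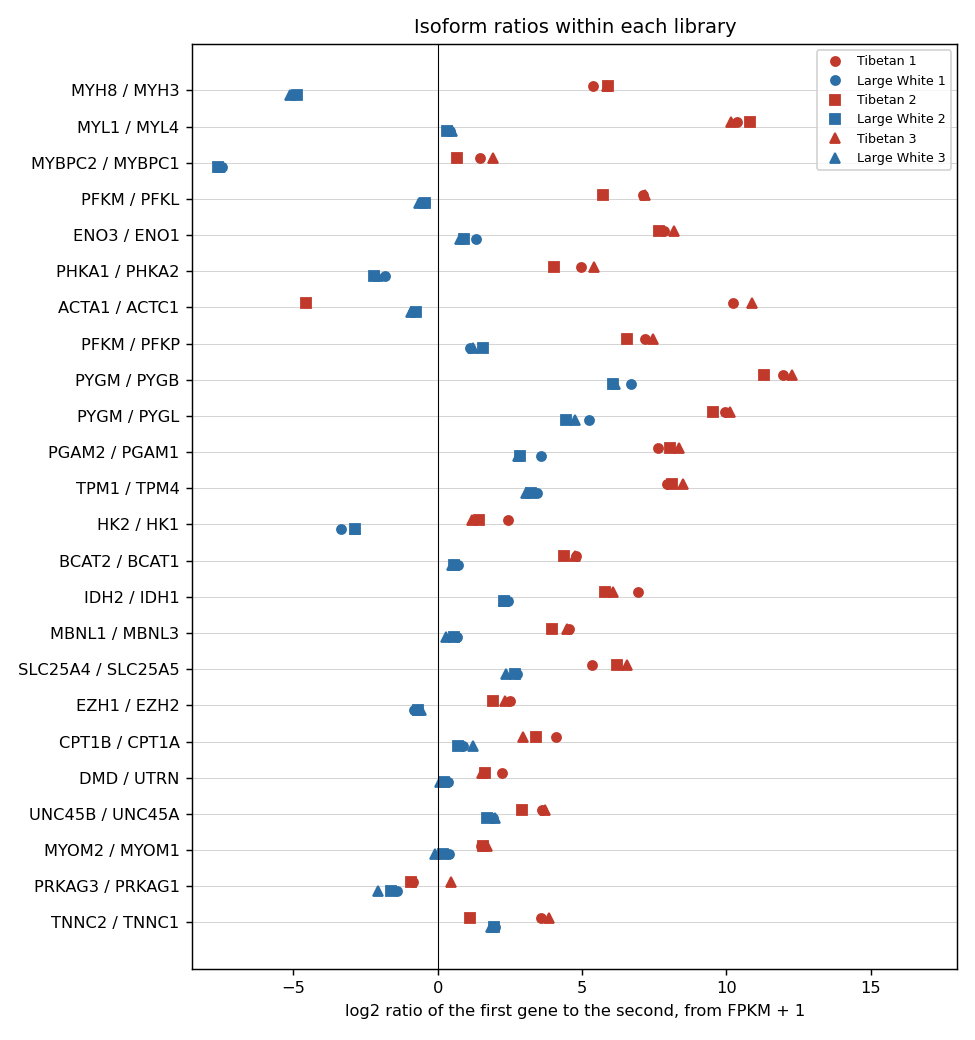
Log2 ratio of the first gene to the second, from FPKM + 1, in each Tibetan (red) and Large White (blue) library for the 24 measured pairs, ordered by the difference between breeds. In 22 pairs the red points lie to the right of all blue points, and the exceptions are ACTA1 / ACTC1 and TNNC2 / TNNC1, where Tibetan 2 falls among or below the blue points.

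The 2 membrane systems that link nerve and contraction went in opposite directions. Of 18 measured genes of excitation-contraction coupling, the release of calcium that follows the electrical signal, 13 rose, 1 fell and 4 changed call with the scale, and the median log2 change was 1.90 deposited and 2.87 median-ratio. CACNA1S, the voltage sensor of the transverse tubule, stood at 112, 89.996 and 153 FPKM in Tibetan and 22.4, 19.3 and 19.97 FPKM in Large White libraries, with a log2 change of 2.44 ± 0.18 on the deposited and 3.39 ± 0.17 on the median-ratio scale (adjusted p = 2.58e-06). Downstream of it, CASQ1, which stores calcium in the fast sarcoplasmic reticulum, stood at 974, 1173 and 1536 against 49.8, 48.2 and 56.8 FPKM, and ATP2A1, the fast calcium pump, at 2845, 2034 and 3815 against 52.6, 52.6 and 45.1 FPKM. JPH1, which holds the tubule and the reticulum together, stood at 70.1, 61.1 and 85.5 against 16.4, 15.2 and 15.1 FPKM. In all 4 genes the breeds stood apart. The gene of the list that fell, ASPH, the locus of the reticulum protein junctin, stood at 1.26, 1.06 and 0.995 against 9.02, 9.41 and 8.497 FPKM.

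Of 11 measured genes of the neuromuscular junction, 1 rose, 9 fell and 1 changed call with the scale, with a median log2 change of -2.21 deposited and -1.45 median-ratio. MUSK, the receptor kinase that gathers acetylcholine receptors under the nerve, stood at 0.758, 0.621 and 1.62 FPKM in Tibetan and 10.4, 11.6 and 14.8 FPKM in Large White libraries, and LRP4, its partner that binds agrin, at 0.8796, 0.957 and 0.9296 against 6.7005, 7.73 and 11.5 FPKM. COLQ, the collagen tail that anchors acetylcholinesterase, stood at 0.247, 0.249 and 0.248 against 8.74, 9.39 and 10.6 FPKM, with the 3 Tibetan values nearly equal. CHRNA1, the alpha subunit shared by fetal and adult acetylcholine receptors, stood at 1.64, 1.47 and 2.17 FPKM in Tibetan and 38.99, 41.4 and 37.3 FPKM in Large White libraries, a log2 change of -3.87 ± 0.31 on the deposited and -3.09 ± 0.26 on the median-ratio scale (adjusted p = 4.34e-06). AGRN, which carries the nerve's signal to the muscle, stood at 2.88, 1.78 and 3.19 against 9.95, 12.1 and 12.5 FPKM. The gene that rose was CHRNE, the subunit found in adult and not in fetal receptors, at 4.67, 3.77 and 4.17 against 3.47, 1.19 and 1.21 FPKM. Large White 1 was close to the Tibetan values of CHRNE, and the call on the deposited scale (adjusted p = 0.0163) was lost on leaving out Tibetan 1, or Large White 2, or Large White 3 (adjusted p = 0.0509, 0.0647 and 0.0652).

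ERBB3, the neuregulin receptor of the junction list, is also a Schwann cell gene, and stood at 0.213, 0.344 and 0.255 against 32.8, 32.6 and 31.2 FPKM. Of 6 measured Schwann cell and neural markers, 1 rose and 5 fell, and their summed level was 14.8 to 27.3 FPKM in Tibetan and 115 to 123 FPKM in Large White libraries. NGFR, of immature Schwann cells, stood at 0.666, 0.292 and 0.725 against 18.1, 22.5 and 22.1 FPKM and TUBB3, of neurons, at 0.6102, 0.325 and 0.317 against 3.66, 2.51 and 2.45 FPKM, and both fell. Their part in the junction result was not tested. In such bulk samples fewer cells of a type and less RNA per cell cannot be told apart.

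**Figure D4:**
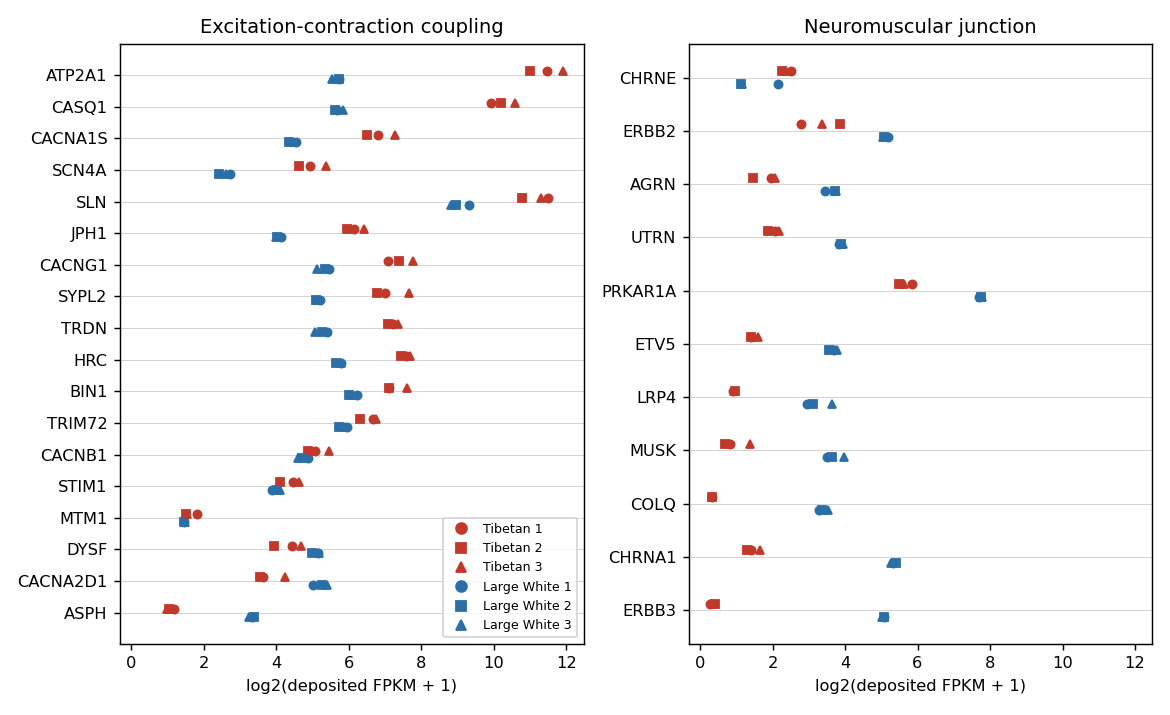
Level of each measured member, as log2 of deposited FPKM + 1, in the 3 Tibetan (red) and 3 Large White (blue) libraries for excitation-contraction coupling (left) and the neuromuscular junction (right), ordered by log2 change. Red points lie to the right of blue in most rows on the left and to the left of blue in every row on the right except CHRNE.

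The costamere ties the contractile apparatus to the matrix. Of its 13 measured members 2 rose, 5 fell, 5 changed call with the scale and 1 was called on neither scale. These shares were near the background of 13% risen and 33% fallen over all tested entries. DTNA, dystrobrevin of the dystrophin complex, rose, with 41.2, 33.1 and 42.4 FPKM in Tibetan and 14.8, 14.02 and 12.7 FPKM in Large White libraries. SGCE, a sarcoglycan found widely outside striated muscle, fell, with 2.31, 2.38 and 1.53 FPKM in Tibetan and 38.9, 33.2 and 35.4 FPKM in Large White libraries, and so did LAMA4, a laminin chain of vessel and nerve basement membranes, with 4.77, 5.04 and 5.07 against 60.8, 62.2 and 63.9 FPKM. Both falls left the Tibetan values far below the Large White ones, without overlap.

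Of 11 measured genes of a list for heat production, creatine cycling and calcium cycling, 8 rose, 2 fell and 1 changed call with the scale, with a median log2 change of 2.22 deposited and 3.15 median-ratio; several of them are general muscle genes. UCP3, the uncoupling protein of skeletal muscle, stood at 97.1, 20.01 and 44.2 FPKM in Tibetan and 0.638, 0.275 and 0.511 FPKM in Large White libraries and UCP2, of immune and other cells, at 3.02, 4.796 and 2.09 against 26.5, 29.4 and 28.2 FPKM, so the breeds stood apart in opposite directions. PPARGC1A, a coactivator of mitochondrial genes, stood at 44.8, 21.5 and 12.9 FPKM in Tibetan and 1.68, 1.63 and 2.38 FPKM in Large White libraries, with Tibetan 1 highest. In the creatine system, GAMT, which makes creatine, stood at 48.1, 74.9 and 80.7 against 9.29, 7.79 and 8.99 FPKM and SLC6A8, which imports it, at 71.9, 39.5 and 66.3 against 11.2, 10.8 and 12.7 FPKM, while CKB, the brain-type creatine kinase, stood at 2.49, 3.67 and 3.43 against 132, 113 and 127 FPKM. The kinase fell and both others rose. ATP2A1, given above for excitation-contraction coupling, is counted in this list too, so the counts of these lists share genes.

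Of 23 measured genes of branched-chain and other amino acid breakdown, 11 rose, 3 fell and 9 changed call with the scale, with a median log2 change of 0.50 deposited and 1.37 median-ratio. GOT1, the cytosolic aspartate aminotransferase, stood at 118, 113 and 125 FPKM in Tibetan and 10.8, 9.16 and 10.7 FPKM in Large White libraries, a log2 change of 3.42 ± 0.11 on the deposited and 4.35 ± 0.13 on the median-ratio scale (adjusted p = 3.84e-08). BCKDHB, of the branched-chain keto acid dehydrogenase, stood at 9.397, 8.22 and 7.204 against 2.26, 1.98 and 1.91 FPKM. BCAT1 was at or near 0 in Tibetan libraries, with 0, 0.0555 and 0 against 7.18, 7.69 and 8.58 FPKM, and ASNS, the asparagine synthetase, fell, with 4.97, 4.66 and 13.3 against 50.8, 37.03 and 36.6 FPKM. Of 12 measured genes for the uptake of fatty acids and the use of ketone bodies, 6 rose, 1 fell and 5 changed call with the scale. ACSL1, which activates long-chain fatty acids, stood at 58.8, 65.3 and 46.5 FPKM in Tibetan and 9.13, 8.76 and 8.804 FPKM in Large White libraries. OXCT1, which activates ketone bodies for use, stood at 22.03, 30.9 and 28.5 against 13.2, 11.8 and 13.2 FPKM. BDH1, which interconverts them, stood at 2.701, 3.22 and 2.73 against 1.0995, 0.675 and 0.595 FPKM. All 3 genes rose without overlap.

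Of 22 measured genes of nucleotide metabolism, 5 rose, 7 fell and 10 changed call with the scale. The share that fell was near the background of 33%. AMPD1, the AMP deaminase of fast muscle, stood at 228, 135 and 195 FPKM in Tibetan and 50.9, 39.4 and 38.3 FPKM in Large White libraries and AK1, the adenylate kinase that balances adenine nucleotides in contraction, at 661, 621 and 917 against 155, 144 and 177 FPKM. PAICS, an enzyme of new purine synthesis, stood at 0.574, 0.714 and 0.423 against 14.7, 14.3 and 13.6 FPKM. The first 2 rose and PAICS fell, as did PPAT, GART and ATIC of the same synthesis route. ADSL, which serves both that route and the purine cycle of contracting muscle, rose.

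Of 28 measured genes of mitochondrial import, carriers and dynamics, 10 rose, 1 fell and 17 changed call with the scale. Of 41 measured genes of the mitochondrial ribosome, 12 rose, 1 fell, 27 changed call with the scale and 1 was called on neither scale. The median log2 change was 0.22 deposited and 1.04 median-ratio for the first list and 0.14 deposited and 1.01 median-ratio for the second. Neither list was matched for level, and 28.4% of all tested entries in the highest bin of mean FPKM rose, beside 13% over all bins. ESRRA, a nuclear receptor that drives mitochondrial genes, stood at 39.5, 34.5 and 40.9 FPKM in Tibetan and 6.67, 6.28 and 6.11 FPKM in Large White libraries, and VDAC1, the pore of the outer membrane, at 249, 228 and 237 against 98.9, 96.2 and 92.9 FPKM. SLC25A4 itself stood at 1158, 1423 and 1241 against 97.3, 95.8 and 86.8 FPKM. MRPS18A, with the largest change of the ribosome list after rescaling, stood at 57.98, 42.4 and 45.4 against 24.8, 16.7 and 18.8 FPKM. MRPL49 was the ribosome gene that fell, at 5.37, 3.28 and 4.22 against 13.4, 10.9 and 10.8 FPKM, and its call on the median-ratio scale (adjusted p = 0.0309) was lost on leaving out any of Tibetan 2 and 3 or Large White 1 and 2.

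Of 16 measured genes linked to muscle protein loss and to FOXO transcription factors, 11 rose, 1 fell and 4 changed call with the scale, with a median log2 change of 1.66 deposited and 2.34 median-ratio. FBXO40, a muscle ubiquitin ligase that targets insulin signalling, stood at 27.8, 31.5 and 47.4 FPKM in Tibetan and 0.187, 0.0917 and 0.228 FPKM in Large White libraries, and ASB2, another muscle ubiquitin ligase subunit, at 181, 98.03 and 168 against 6.18, 5.25 and 5.91 FPKM. TRIM63, the ligase MuRF1, stood at 92.3, 97.7 and 81.1 against 9.31, 7.61 and 5.33 FPKM. FBXO32, the ligase atrogin-1, stood at 50.7, 21.7 and 14.9 against 2.96, 1.998 and 2.27 FPKM. FBXO32 was highest in Tibetan 1, and so was FOXO1, at 21.3, 9.91 and 9.23 against 3.15, 3.31 and 3.38 FPKM; both stood apart from Large White. Of 23 measured proteasome subunits, 10 rose, 0 fell, 11 changed call with the scale and 2 were called on neither scale. PSMD11, a lid subunit of the proteasome's cap, stood at 64.1, 37.1 and 62.8 against 19.3, 19.7 and 20.5 FPKM. PSMD3, of the same lid, stood at 85.7, 60.8 and 74.9 against 32.4, 30.8 and 30.3 FPKM. PSMB8, an immunoproteasome subunit, was low and rose from under 1 FPKM, with 2.07, 3.33 and 1.08 against 0.0962, 0.575 and 0.249 FPKM.

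Of 23 measured genes of autophagy and lysosomes, 5 rose, 3 fell, 14 changed call with the scale and 1 was called on neither scale. SQSTM1, the p62 cargo receptor of autophagy, stood at 207, 162 and 223 FPKM in Tibetan and 32.7, 30.02 and 30.95 FPKM in Large White libraries and TFEB, which drives lysosomal genes, at 10.9, 12.5 and 15.7 against 3.395, 3.51 and 2.99 FPKM, and both rose. BNIP3L, a receptor for the removal of mitochondria, fell, with 2.45, 2.53 and 2.57 against 15.3, 16.9 and 15.997 FPKM. Among 26 measured heat shock proteins and chaperones, 6 rose, 4 fell and 16 changed call with the scale. HSPB8 and BAG3, partners in the clearance of damaged contractile proteins, both rose. HSPB8 stood at 368, 212 and 349.9 against 54.5, 41.3 and 45.8 FPKM. BAG3 stood at 79.8, 75.8 and 86.6 against 12.9, 11.8 and 11.8 FPKM. HSP90AB1, the constitutive heat shock protein 90, fell, with 70.4, 63.97 and 66.8 against 242, 238 and 255 FPKM.

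For the general machinery of translation the call mostly turned on the scale. Of 25 measured initiation and elongation factors 4 rose, 2 fell and 19 changed call with the scale, and of 17 aminoacyl-tRNA synthetases 1 rose, 0 fell, 15 changed call with the scale and 1 was called on neither scale. EIF1, which selects the start codon, stood at 809, 755 and 829.5 FPKM in Tibetan and 237, 220.4 and 215 FPKM in Large White libraries, and SARS1, the seryl-tRNA synthetase that was alone in rising, at 47.02, 41.6 and 67.3 against 17.8, 16.4 and 15.4 FPKM. EIF4EBP1, the brake on cap-dependent initiation, rose from the FOXO list, with 367, 289 and 232 against 169.5, 155 and 129.9 FPKM. PABPC1, the poly(A)-binding protein, fell, with 67.1, 50.6 and 46.99 against 230.1, 236 and 242 FPKM.

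Of 38 measured spliceosome and RNA-binding genes, 3 rose, 18 fell, 15 changed call with the scale and 2 were called on neither scale, with a median log2 change of -1.28 deposited and -0.35 median-ratio. The 3 that rose were RBM38, MBNL1 and RBFOX1, which act in differentiating or mature muscle. RBM38 stood at 95.1, 61.7 and 98.3 against 11.6, 10.01 and 10.6 FPKM. MBNL1 stood at 29.9, 23.4 and 29.3 against 7.38, 8.09 and 7.99 FPKM. HNRNPA1, an abundant general splicing repressor, stood at 90.9, 103 and 78.9 FPKM in Tibetan and 475, 501 and 516 FPKM in Large White libraries. Of 45 measured chromatin modifiers, 2 rose, 20 fell, 22 changed call with the scale and 1 was called on neither scale. UHRF1, which copies DNA methylation at replication, stood at 0.126, 0.324 and 0.228 FPKM in Tibetan and 15.2, 17.4 and 18.1 FPKM in Large White libraries, HMGB2, of dividing cells, at 2.399, 3.73 and 1.86 against 50.4, 48.5 and 53.3 FPKM, and EZH2 at 0.415, 0.829 and 0.526 against 8.86, 8.596 and 8.66 FPKM. SMYD2, a lysine methyltransferase of striated muscle, rose, with 29.5, 29.99 and 35.1 against 5.22, 4.25 and 3.76 FPKM. The background fallen was 33% of all tested entries.

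All 14 measured genes of a fetal and oncofetal list fell, with a median log2 change of -3.75 deposited and -2.86 median-ratio. CRABP2, PTN and NES of this list are also among the 15 largest falls above. The list was chosen with earlier results of these data known, so its count is not separate from those falls. MEST, an imprinted gene of embryonic mesoderm, stood at 0.232, 0.348 and 0.358 FPKM in Tibetan and 46.8, 44.6 and 52.8 FPKM in Large White libraries, and GPC3, a growth-restraining proteoglycan, at 14.9, 11.6 and 20.9 against 354, 402 and 375 FPKM. IGF2BP1, an RNA-binding protein of embryonic tissue, was listed at 0 in all 3 Tibetan libraries and at 3.09, 4.47 and 3.59 FPKM in Large White. AFP of this list was low in Large White 1 too, at 0.205 FPKM beside 6.23 and 8.75 FPKM in Large White 2 and 3. Of 23 measured genes of the non-muscle cytoskeleton 1 rose, 15 fell and 7 changed call with the scale, among the falls STMN1 and NES above. Muscle stem cell markers moved with these lists: of 8 measured, 0 rose, 6 fell and 2 changed call with the scale, and their sum was 33.9 to 48.5 FPKM in Tibetan and 231 to 255 FPKM in Large White libraries. MYF5, the early myogenic factor, stood at 5.86, 5.18 and 3.01 against 49.03, 42.9 and 48.9 FPKM, and CHODL, a membrane lectin, at 1.23, 2.26 and 2.04 against 41.4, 38.4 and 47.5 FPKM. The part of these cells in the fall of the dividing-cell genes was not tested.

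Notch signalling holds muscle progenitors undifferentiated, through ligands, receptors that are cut when bound, and target repressors. Of 17 measured genes 1 rose, 11 fell, 3 changed call with the scale and 2 were called on neither scale. The ligand DLL1 stood at 0.745, 0.793 and 1.38 FPKM in Tibetan and 11.4, 10.9 and 13.3 FPKM in Large White libraries, the receptor NOTCH2 at 1.397, 1.199 and 1.58 against 11.4, 13.3 and 14.7 FPKM, and LFNG, which adds sugar to the receptors, at 4.67, 3.32 and 3.46 against 32.8, 35.5 and 33.6 FPKM. HES6, a relative of the targets that favours differentiation, stood at 1.31, 1.23 and 1.49 against 18.9, 15.4 and 16.3 FPKM. MFNG, a relative of LFNG, was the gene that rose, with 3.502, 2.58 and 5.06 against 1.81, 1.67 and 1.57 FPKM. Positional genes, HOX genes and factors of trunk and limb patterning, made up another list. Of 22 measured, 0 rose, 8 fell, 12 changed call with the scale and 2 were called on neither scale. The share that fell was near the background of 33%. MEOX2, of the embryonic mesoderm and early limb muscle, stood at 7.68, 6.54 and 6.02 against 45.5, 43.5 and 48.3 FPKM. TBX18, of the same tissue layer, stood at 0.555, 0.656 and 0.5404 against 4.404, 7.53 and 6.404 FPKM. Both fell.

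Of 34 measured genes of the secretory pathway and collagen processing 0 rose, 26 fell, 7 changed call with the scale and 1 was called on neither scale, with a median log2 change of -1.92 deposited and -0.98 median-ratio. Genes of collagen maturation had the 3 largest falls of the list after rescaling. FKBP10, a collagen folding factor, stood at 3.29, 3.12 and 3.86 FPKM in Tibetan and 86.7, 104 and 102 FPKM in Large White libraries, P4HA3, a prolyl hydroxylase, at 0.5503, 0.766 and 0.332 against 33.9, 23.7 and 37.04 FPKM, and LOX, which cross-links collagen, at 1.17, 1.37 and 3.13 against 43.3, 51.9 and 48.9 FPKM. General folding helpers of the list fell as well, with HSPA5 at 38.6, 38.5 and 37.4 against 141, 152 and 152 FPKM and CALR at 56.1, 54.9 and 53.6 against 273, 295 and 281 FPKM. Fibroblast markers fell as well, 7 of 8 measured, with a sum of 331 to 376 FPKM in Tibetan and 4966 to 5502 FPKM in Large White libraries, and their part in this result was not tested. PI16, of perivascular fibroblasts in adult tissue, rose, with 11.04, 22.8 and 12.5 against 4.07, 1.03 and 2.67 FPKM.

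Of 20 measured genes of cholesterol synthesis, 0 rose, 14 fell and 6 changed call with the scale, with a median log2 change of -1.57 deposited and -0.83 median-ratio. SREBF2, the transcription factor of the pathway, stood at 6.45, 5.75 and 9.72 FPKM in Tibetan and 34.2, 40.2 and 40.2 FPKM in Large White libraries. SREBF2 fell without overlap.

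Immediate early genes are transcribed within minutes of a stimulus to the cell. Of 18 measured, 14 rose, 0 fell and 4 changed call with the scale, with a median log2 change of 1.48 deposited and 2.24 median-ratio. FOS, of the AP-1 transcription factor, stood at 144, 145 and 342 FPKM in Tibetan and 5.06, 5.16 and 5.55 FPKM in Large White libraries, a log2 change of 4.95 ± 0.34 on the deposited and 5.85 ± 0.31 on the median-ratio scale (adjusted p = 1.92e-06). NR4A3, an orphan receptor induced by exercise, stood at 73.5, 16.1 and 25.04 against 0.07798, 0.113 and 0.0443 FPKM, with Tibetan 1 highest. ATF3 stood at 86.5, 34.9 and 104 against 3.98, 2.98 and 4.88 FPKM, with Tibetan 2 lowest, and ZFP36, which destabilizes inflammatory messages, at 39.5, 62.6 and 68.5 against 4.33, 4.799 and 4.16 FPKM. EGR1 stood at 28.2, 54.8 and 54.6 against 11.6, 10.1 and 9.54 FPKM. All 5 rose without overlap, although the Tibetan spread was wider than that of Large White.

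Of 9 measured genes that respond to glucocorticoids or thyroid hormone 7 rose, 0 fell and 2 changed call with the scale. ZBTB16, a zinc finger factor induced by glucocorticoids, stood at 47.01, 36.4 and 52.5 FPKM in Tibetan and 1.48, 1.42 and 1.16 FPKM in Large White libraries. KLF9 stood at 14.7, 23.5 and 19.7 against 0.164, 0.243 and 0.203 FPKM, FKBP5, a brake on the glucocorticoid receptor, at 69.4, 47.5 and 59.2 against 3.83, 5.94 and 7.56 FPKM, and DUSP1, which switches off stress kinases, at 163, 282 and 274 against 33.2, 28.1 and 27.7 FPKM. Of 14 measured clock genes 7 rose, 0 fell, 5 changed call with the scale and 2 were called on neither scale. PER1, a repressor of the clock, stood at 30.1, 36.6 and 54.5 against 12.5, 13.3 and 15.2 FPKM. CRY2, its partner, stood at 22.1, 15.03 and 26.4 against 7.09, 6.89 and 8.56 FPKM. BHLHE41, another repressor, stood at 3.02, 2.94 and 3.01 against 0.0299, 0.167 and 0.153 FPKM. All 3 rose, as did the activator BMAL1. PER1 is also a member of the hormone list, and DUSP1 of the immediate early list, so the counts of these lists share genes. The labels give no time of day or interval from death to freezing, so neither can be set beside these genes.

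The Tibetan breed is known from high altitude, and genes of the oxygen response moved both ways. Of 28 measured genes of the hypoxia list 8 rose, 8 fell and 12 changed call with the scale, beside a background of 13% risen and 33% fallen. The median log2 change was -0.51 deposited and 0.29 median-ratio. VEGFA, the growth factor of vessels, stood at 109.7, 57.8 and 49.02 FPKM in Tibetan and 5.95, 7.22 and 7.45 FPKM in Large White libraries, and EPAS1, the factor HIF-2 alpha, at 18.7, 15.8 and 25.6 against 10.5, 10.4 and 9.95 FPKM. HIF1A, the factor HIF-1 alpha, stood at 6.73, 4.84 and 6.33 against 19.6, 20.7 and 20.9 FPKM. VEGFA and EPAS1 rose and HIF1A fell; the HIF1A call after rescaling (adjusted p = 0.0149) was lost without Tibetan 2 (adjusted p = 0.0544). Other members that rose, LDHA, PGK1 and HK2, are enzymes of glycolysis, and LOX, P4HA1 and PLOD2 among those that fell are enzymes of collagen processing.

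Of 8 measured endothelial markers 0 rose, 1 fell, 6 changed call with the scale and 1 was called on neither scale. The median log2 change was -0.40 deposited and 0.42 median-ratio. EGFL7, ESAM, ROBO4 and TEK were called higher after rescaling alone, and PECAM1 and TIE1 lower on the deposited scale alone. The marker that fell was the VEGF receptor KDR, with 4.35, 2.59 and 4.49 against 23.5, 26.1 and 25.1 FPKM. HBB, the beta globin of red cells, stood at 191, 573 and 145 FPKM in Tibetan and 3717, 1910.4 and 2423 FPKM in Large White libraries and ALAS2, the heme enzyme of red cell precursors, at 0.967, 1.74 and 0.692 against 13.3, 7.69 and 11.9 FPKM. Both fell, with Tibetan 2 nearest to Large White, while TFRC, the iron uptake receptor that many growing cells also use, rose, with 18.5, 21.4 and 25.6 against 5.97, 5.99 and 6.87 FPKM. Of 24 measured antioxidant genes 5 rose, 5 fell and 14 changed call with the scale. NQO1, a target of the oxidative stress factor NRF2, stood at 10.7, 6.65 and 10.1 against 1.44, 1.76 and 1.72 FPKM, and rose. GSTA4, a glutathione transferase, stood at 1.56, 1.76 and 1.34 against 35.4, 36.3 and 32.2 FPKM. GSTM3, another, stood at 0.163, 0.4902 and 0.874 against 27.6, 27.9 and 18.9 FPKM. Both transferases fell.

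Of 15 measured genes of the interferon response, 4 rose, 1 fell, 6 changed call with the scale and 4 were called on neither scale. RSAD2, an antiviral enzyme, stood at 3.39, 1.18 and 4.95 FPKM in Tibetan and 0.0545, 0.0933 and 0 FPKM in Large White libraries and IRF1, a transcription factor of the response, at 4.32, 10.2 and 5.52 against 1.998, 2.47 and 2.12 FPKM; both rose. MX1, an antiviral GTPase, stood at 8.09, 2.74 and 5.36 against 0.171, 0.503 and 0.676 FPKM, with the breeds apart. Its adjusted p was 0.0775 on the deposited and 0.0413 on the median-ratio scale when the Wujin libraries added to the spread, and 0.000782 on the deposited scale with the 6 libraries alone, and the call after rescaling was lost on leaving out any 1 library (adjusted p from 0.0521 to 0.108). STAT2, a mediator of the signal, fell, with 2.32, 1.64 and 2.43 against 6.95, 7.91 and 7.697 FPKM.

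Genes often used as stable references did not hold a common level. Of 11 measured, 5 rose, 3 fell and 3 changed call with the scale. GAPDH rose, with a log2 change of 3.87 ± 0.15 on the deposited and 4.84 ± 0.21 on the median-ratio scale. YWHAZ, a signalling adaptor, fell, with 14.6, 14.7 and 15.2 against 122, 138 and 127 FPKM. GUSB, a lysosomal enzyme, fell, with 4.096, 4.94 and 4.04 against 38.5, 34.9 and 35.4 FPKM. ACTB, the non-muscle beta-actin, stood at 307, 336 and 303 FPKM in Tibetan and 669.8, 695 and 700.4 FPKM in Large White libraries, and was called lower on the deposited scale (log2 change -1.13, adjusted p = 1.51e-05) and not called after rescaling (log2 change -0.15, adjusted p = 0.363).

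Other cell types that a piece of muscle could hold gave mixed counts. Of 11 measured pericyte and smooth muscle markers, 1 rose, 4 fell and 6 changed call with the scale. ACTA2, CNN1, CSPG4 and NOTCH3 fell and DES, which muscle fibres also express, rose. These shares were near the background of 13% risen and 33% fallen. Of 6 leukocyte markers, 0 rose, 0 fell, 5 changed call with the scale and 1 was called on neither scale. Of 8 liver and plasma protein markers, 0 rose, 2 fell, 1 changed call with the scale and 5 were called on neither scale, with AFP and APOA1 the ones that fell. AFP stood at 0.0295, 0 and 0 against 0.205, 6.23 and 8.75 FPKM, so Large White 1 was low as well. LIPE, the hormone-sensitive lipase, rose among 2 measured adipocyte markers, and KRT8 and TP63 rose among 3 measured skin and epithelial markers. The remaining epithelial marker, CDH1, was called on neither scale. Its Tibetan values were the lower ones, at 0.292, 0.352 and 0.35 against 1.42, 0.79 and 1.22 FPKM. The part of these cell types in the other results was not tested. Of 25 measured genes of calcineurin and calmodulin kinase signalling, which link nerve activity to transcription in fibres, 8 rose, 3 fell and 14 changed call with the scale. The calcineurin subunits PPP3CA and PPP3CB and the factor NFATC1 rose, and MEF2C, NFATC4 and VGLL4 fell.

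**Figure D5:**
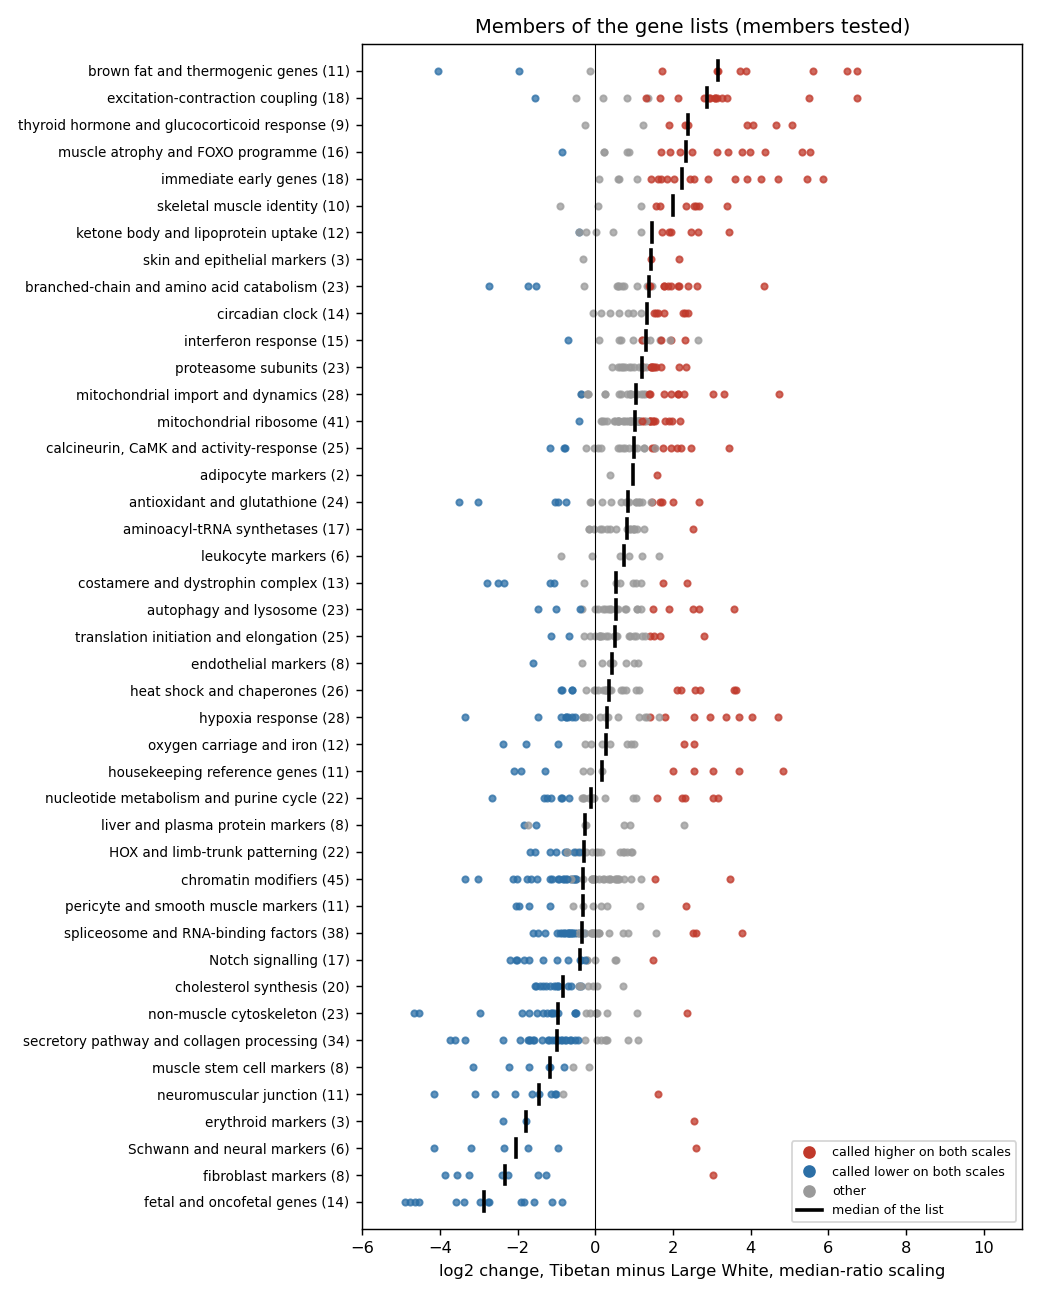
Log2 change after median-ratio scaling of every tested member of the 43 gene lists (points), with the list's median (black bar) and the number tested in brackets. Lists of muscle function, calcium, hormone response and protein breakdown lie to the right and fetal, fibroblast and neural lists to the left, and grey points mark members whose call was absent or changed with the scale.

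The 407 entries called in opposite directions, 293 of them with a symbol, were lower in Tibetan muscle on the deposited scale and higher after rescaling, by small amounts. MYOM1, a protein of the M-band, stood at 122, 109 and 112 FPKM in Tibetan and 136, 135 and 152 FPKM in Large White libraries, with a log2 change of -0.30 ± 0.11 on the deposited and 0.67 ± 0.11 on the median-ratio scale (adjusted p = 0.0302 and 0.000569). CEBPZ, PCM1, PTCD3, TP53RK and RRAGA, general factors of transcription, the centrosome, mitochondrial translation, tRNA modification and nutrient sensing, had log2 changes of -0.28 and 0.61, -0.34 and 0.57, -0.30 and 0.62, -0.29 and 0.59 and -0.39 and 0.56 on the deposited and the median-ratio scale. The call of each of the 6 on the deposited scale was lost on leaving out some single libraries, with an adjusted p of 0.0526 to 0.107 where it was lost. These were Tibetan 2 and 3 and Large White 2 and 3 for MYOM1, Tibetan 2 and 3 and every Large White library for CEBPZ and PTCD3, Large White 2 for PCM1, and Tibetan 1 and 2 and every Large White library for TP53RK and RRAGA. After rescaling no call of the 6 was lost on leaving out 1 library.

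Some entries were at 5 FPKM or more in all libraries of a breed and under 0.1 FPKM in all of the other. On the deposited scale 6 entries, 3 with a symbol, were present in this way in Tibetan and 42, 21 with a symbol, in Large White muscle, and 22 of the 42 were listed at 0 in all 3 Tibetan libraries. After median-ratio scaling the counts were 10, 7 with a symbol, and 22, 3 with a symbol, and 19 of the 22 were listed at 0 in all Tibetan libraries. As with ACTA1, an exact 0 in this table can be a failed estimate, so these entries are listed at 0 and not shown to be absent. KLHL33, SMPDL3B and KCNC1, the last a potassium channel, were the Tibetan genes. KCNC1 was highest in Tibetan 1, at 25.1, 7.18 and 10.8 FPKM. The Large White genes that met the rule on both scales were CDH2, DPYSL5 and BCAT1. CDH2, the N-cadherin of fusing myoblasts and neurons, was listed at 0 in each Tibetan library and stood at 28.9, 22.2 and 38.5 FPKM in Large White. DPYSL5, of neuron outgrowth, stood at 27.03, 24.1 and 19.6 FPKM in Large White. The following met the rule on the deposited scale and not after rescaling. SEMA3A, a repellent of growing nerve endings, stood at 14.3, 15.0008 and 15.3 FPKM in Large White. KIF11, DLGAP5 and NEK2, which act on the mitotic spindle, stood between 5.004 and 6.303 FPKM, and COL2A1, the collagen of cartilage, at 12.3, 5.09 and 16.2 FPKM. These rest on values near 0, and no fold change is given for them.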

How the data were processed

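The authors deposited FPKM of all libraries in 1 table; TopHat stands in the submitters' processing notes without a version, and the quantifier, build and gene models were not given in the sources used here. No read counts were used, so depth per value is unknown. Symbols matched 11179 of 19643 entries (56.91%); where an identifier repeats, its highest entry was used. Entries averaging at least 1 FPKM over the 9 libraries (13106) were tested on log2(FPKM + 1), which understates changes of low genes, with limma 3.58.1 in R 4.3.3 (mean-variance trend, 3 breed means, Benjamini-Hochberg over all tested), deposited and after median-ratio scaling over 14562 entries above 0 in all 9 libraries. The code was tested on simulated data. A few genes and 1 pair are not reported here.

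Members, lists and tests were chosen with earlier results of these data known. Genes were named by rule: the 15 highest and 15 lowest changes called on both scales, up to 5 members by p of each of 43 lists, the measured pairs, the 10 highest entries per breed, 6 entries of opposite call, and entries of high spread or near 0 in 1 breed. A set of 134 tested genes given with values was summarized. Of these, 29 lie outside the rule, chosen with their values in view. In the set 67 rose and 59 fell. Over those, the limma adjusted p was at most 0.0163 deposited and 0.0309 median-ratio, and 0 overlapped between breeds. Most were picked by size of change, by p or with their values in view, so these limits follow from the choice. Over all tested entries the breeds stood apart on the deposited scale for 14.1% higher and 66.5% lower. The rest of the set, among them MX1, ACTB and MYOM1, changed call with the scale. Other genes given by library, such as ACTA1, MYL11, TNNC1, A2M, ALB and AHSG, are not in the set. ACTA1, ALB and AHSG overlapped between breeds and were called on neither scale. Alternatives were other pseudocounts, filters and scalings, a minimum change, the 6 libraries alone, each library left out and a replicate block.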

Additional observations from a re-analysis of the deposited data

How the results depend on the processing

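Scaling moved the counts most. Against 1703 higher and 8280 lower on the deposited scale, median-ratio scaling gave 4245 and 4326 and quantile normalization 4155 and 4117; the same total gave 1493 and 8799, and the same total without the 50 highest entries 2166 and 7235. A mean of at least 5 FPKM, which tests fewer entries, left 4329 lower deposited and 2157 lower after rescaling. A minimum absolute log2 change of 1 left 988 higher and 5161 lower deposited, and 2331 and 2230 after rescaling. Leaving out 1 library gave 1510 to 1764 higher and 7695 to 8067 lower deposited, and 3746 to 4165 and 3836 to 4129 after rescaling. Same-numbered libraries of the breeds had correlated deviations of 0.013, -0.023 and -0.076, and differently numbered ones of -0.11 to 0.12. No pairing by number was seen, and so few values cannot exclude one. The replicate block on the 6 libraries gave 1713 higher and 8351 lower deposited, and 4133 and 4270 after rescaling.

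Of the set of 134 genes, the direction reversed for 6, all called in opposite directions by scale. Log2 changes became 0.67 for MYOM1 and 0.56 for RRAGA under median-ratio scaling. Under median-ratio scaling and quantile normalization they became 0.61 and 0.45 for CEBPZ and 0.57 and 0.29 for PCM1. Under the same settings they became 0.62 and 0.31 for PTCD3 and 0.59 and 0.46 for TP53RK. The number of fragments behind low FPKM is unknown, which limits what values near 0 can show.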

Other observations

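Libraries of a breed differed in single genes. On the deposited scale 116, 87 and 65 tested entries stood more than 1 log2 unit above both other libraries of the breed in Tibetan 1, 2 and 3, and 56, 31 and 68 in Large White 1, 2 and 3; 43, 81 and 79 stood as far below in Tibetan and 72, 52 and 23 in Large White libraries. A2M, a plasma protease inhibitor, stood at 192, 0.394 and 0.1605 FPKM in Tibetan and 0.1001, 0.317 and 0.379 FPKM in Large White libraries. PVALB, the calcium buffer of fast fibres, stood at 2.79, 34.3 and 50.2 FPKM in Tibetan and 0, 0 and 0.361 FPKM in Large White libraries, and Tibetan 1 was the low one. In Tibetan 2, TNNC1, MYH7B and CSRP3, genes of slow fibres or of mechanical stress, were above both other Tibetan libraries, with CSRP3 at 139, 493 and 128 FPKM in Tibetan and 442, 371 and 307 FPKM in Large White libraries. ANKRD1, another gene of mechanical stress, was the reverse, at 377, 76.2 and 293 FPKM in Tibetan and 32.7, 33.3 and 44.6 FPKM in Large White libraries.

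Single high values stood beside values near 0 for ESR1 in Tibetan 2, at 0, 50.9 and 0 FPKM over the Tibetan libraries, and for FYB1 in Tibetan 3, at 0.917, 0.512 and 1366 FPKM. TGFB2 stood at 8.68, 5.63 and 427 FPKM in Tibetan and 951, 825 and 666 FPKM in Large White libraries, so Tibetan 3 was nearer to Large White than to its own breed. Plasma proteins of the liver varied within both breeds. ALB, albumin, stood at 25.7, 9.91 and 0.342 FPKM in Tibetan and 1.24, 1.08 and 1.67 FPKM in Large White libraries and AHSG, fetuin A of fetal serum, at 7.72, 1.14 and 0.103 FPKM in Tibetan and 1.097, 29.95 and 42.98 FPKM in Large White libraries, with Tibetan 3 and Large White 1 low for AHSG. In Large White 2, COMP and COL11A2, genes of cartilage, were the lowest of the breed, with COMP at 5.45, 0.539 and 3.54 FPKM and COL11A2 at 13.8, 4.06 and 11.999 FPKM over the Large White libraries. No test was made of these differences between libraries.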
